A study of Mus musculus with 24 samples.

Results

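The genes of the cytosolic ribosomal proteins were examined in primary mouse neural stem cells (NSCs). They were found in the table of 14922 genes by symbol (Rpl, Rps and Rplp followed by a number, with Rpsa), which gave 83 genes, 50 with a large-subunit (60S) symbol and 33 with a small-subunit (40S) symbol. GENCODE annotates Rps4l, Rpl6l and Rpl32l, which the rule took in, as pseudogenes. Rpl29 was selected on its measured difference between the strains, so its strain values are a description with no test. The other 82 entered by name and were tested.

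RNA was compared in 4 groups of female NSC lines, which differ in strain and in Smchd1, the gene of a chromatin protein that silences genes. FVB_WT was wild type on the FVB/NJ background. FVB_MD43 was homozygous on that background for MommeD43, an allele of Smchd1 that arose in an ENU mutagenesis screen. B6GFP_MD43 was homozygous for the same change, made with CRISPR/Cas9 on C57BL/6J in a Smchd1 gene fused to GFP. B6GFP_WT carried the fusion alone. Strain and GFP fusion changed together and cannot be told apart. In the labels the B6GFP_WT lines are Smchd1+/+, whereas the study writes Smchd1GFP/GFP for them. Lines were grown from E14.5 cortex and used at early passage (at most 10), so each is a cultured population and not tissue. After 2 columns equal to the mean of their group mates had been left out, 22 libraries remained: FVB_WT had 6 libraries of 5 lines, FVB_MD43 5 of 4, B6GFP_WT 6 of 4 and B6GFP_MD43 5 of 4. Batch 1 held both strains, batch 2 FVB alone and batch 3 B6GFP alone.

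Every protein of the cell is made by ribosomes, each built from ribosomal RNA and a set of small basic proteins that is nearly the same in all tissues. The proteins are made in the cytoplasm, enter the nucleolus and are assembled there on the RNA, and those left over are degraded. Their mRNAs are among the most abundant in growing cells, and many begin with a C followed by a run of pyrimidines, the 5′ terminal oligopyrimidine (5′TOP) tract, through which nutrient signalling sets their translation. Over evolution these mRNAs were often copied back into the genome, so most of the genes have processed pseudogenes of nearly the same sequence.

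The unit was log2 CPM (the reads of a gene scaled to a common library total, here on the log2 scale), corrected by the authors for batch, sex and strain. How the correction for strain acted is not given in the sources used here, so the strain differences below are those left in the deposited values. The 83 genes had a median level of 7.85 log2 CPM over all libraries, against 4.54 for all genes, and 60 of them lay above 7 log2 CPM. Per kilobase of mRNA, the highest was Rplp1 at 10.60 and the lowest Rpl39 at 0.28 log2 CPM per kb. NSC markers were high, with Vim at 11.12, Fabp7 at 10.58, Nes at 10.16, Sox2 at 7.93 and Pax6 at 4.97 log2 CPM as means over the libraries. Absolute depth was unknown, and relative depth, with the deepest library set to 1, ranged from 0.526 to 0.893 for batch 1, from 0.435 to 1 for batch 3 and from 0.137 to 0.19 for the shallow batch 2. In B6GFP_WT replicate 4 the 83 genes took 2.13% of the library, the lowest share of all, and the fit gave that library its lowest quality weight, 0.101.

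Reads of 75 bases can belong to a gene or to its copy. Of the 83 mRNAs, 81 held at least 1 window of 75 bases that occurs unchanged in the transcript of another annotated gene, and the median share of such windows was 48.5%. In Rpl29 it was 56.8%. How the authors' counting assigned such reads is not given in the sources used here, so the levels of these genes and of their copies are uncertain where windows are shared.

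The stretches below are shown because, in the reference genome, gene and pseudogene differ within them only at the bases in capitals. Reads of reference sequence within such a stretch can be told from those of the pseudogene only there. Libraries of both strains were mapped to this reference, and the FVB/NJ bases of these genes and copies were not examined. Sequences are from the GENCODE M21 transcripts (GRCm38), 5′ to 3′ in the direction of the gene. Over their whole aligned coding sequences with stop codon, Rpl29 and the processed pseudogene Gm8210 differed at 3 of 483 bases, Rpl34 and Rpl34-ps1 at 2 of 354, and Rpl35a and Gm10029 at 7 of 330. The stretch of Rpl34 crosses an intron, and the others lie within 1 exon.
Rpl29, chr9:106431216-106431316, plus strand, coding bases in exon 4: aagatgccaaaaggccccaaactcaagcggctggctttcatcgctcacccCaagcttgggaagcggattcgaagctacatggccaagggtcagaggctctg
Gm8210, chr1:43189405-43189505, plus strand: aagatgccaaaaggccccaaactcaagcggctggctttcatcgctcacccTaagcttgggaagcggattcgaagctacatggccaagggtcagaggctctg
Rpl34, chr3:130726878-130728749, minus strand, coding bases in 2 exons: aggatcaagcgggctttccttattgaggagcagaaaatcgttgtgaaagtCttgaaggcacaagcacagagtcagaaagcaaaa
Rpl34-ps1, chr6:71124877-71124960, plus strand: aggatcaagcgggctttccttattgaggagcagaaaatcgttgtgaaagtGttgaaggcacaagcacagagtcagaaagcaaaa
Rpl35a, chr16:33058710-33058810, plus strand, coding bases in exon 4: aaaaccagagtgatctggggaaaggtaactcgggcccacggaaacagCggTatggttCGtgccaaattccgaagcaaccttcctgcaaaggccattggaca
Gm10029, chr13:6662599-6662699, minus strand: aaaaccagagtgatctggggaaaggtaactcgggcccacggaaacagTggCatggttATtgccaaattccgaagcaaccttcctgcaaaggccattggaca

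Rpl29 (Entrez 19944, chr9:106428889-106431568 on GRCm38.p6) encodes a basic protein of the 60S subunit that also binds heparin. It was listed at 4.23, 4.31, 4.43, 4.43, 4.79 and 4.87 log2 CPM in the 6 FVB_WT libraries and at 4.15, 4.38, 4.39, 4.55 and 4.87 in the 5 FVB_MD43 libraries. In B6GFP_WT it was listed at 7.96, 8.33, 8.37, 8.42, 8.43 and 8.44, and in B6GFP_MD43 at 8.18, 8.31, 8.36, 8.40 and 8.47 log2 CPM. The strains were far apart and did not overlap, and the genotypes within a strain overlapped. The fitted strain difference, B6GFP minus FVB, was 3.95 on the log2 scale in wild type (SE 0.0983, 15.4-fold) and 3.83 in MommeD43 (SE 0.116, 14.2-fold). It was 3.97 and 3.80 within batch 1, the batch with both strains. Rpl29 made up 0.069% to 0.1175% of the summed CPM of the 83 genes in FVB libraries and 1.01% to 1.28% in B6GFP libraries.

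The pseudogene Gm8210 on chromosome 1, which shares 31.6% of the windows of Rpl29, had the opposite pattern. It was listed at 6.98 to 7.45 log2 CPM in FVB and 4.57 to 4.91 in B6GFP, with a fitted strain difference of -2.28 in wild type (limma, adjusted p = 1.43e-17) and -2.42 in MommeD43 (adjusted p = 2.26e-16). Summed on the CPM scale, Rpl29 and its 6 pseudogenes in the table came over lines, in log2 CPM, to 7.49 ± 0.155 (SD, n = 5) for FVB_WT, 7.40 ± 0.0933 (SD, n = 4) for FVB_MD43, 8.44 ± 0.209 (SD, n = 4) for B6GFP_WT and 8.48 ± 0.117 (SD, n = 4) for B6GFP_MD43. On this sum the strain difference was 1.15 in wild type and 1.03 in MommeD43, a 2.22-fold and a 2.04-fold difference in place of 15.4-fold and 14.2-fold.

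The other 5 pseudogenes of Rpl29 were low. Gm13141 (2.47, adjusted p = 2.82e-08) and Gm10913 (1.35, adjusted p = 0.000791) were higher in B6GFP_WT than in FVB_WT, while the differences of Gm8482 (0.38), Gm12704 (0.40) and Gm12508 (0.00) did not pass. Uimc1, a protein-coding gene of the DNA damage response with annotated transcripts that share 43.2% of the windows of Rpl29, had a difference of 0.04 (adjusted p = 0.715). Of the 14 genes in the table that start within 250 kb of Rpl29, 7 were higher and 0 lower in B6GFP_WT, beside 17.9% and 23.2% of all genes, with a median difference of 0.27, and 6 were higher and 2 lower in B6GFP_MD43. The 3 most abundant neighbours were the RNA-binding protein Pcbp4, the small nucleolar ribonucleoprotein component Rrp9 and Alas1, the first enzyme of haem synthesis. Their differences in wild type were 0.35, 0.11 and -0.09, of which that of Pcbp4 passed (limma, adjusted p = 0.00567). Pcbp4 no longer passed in 4 of 25 alternative fits (adjusted p up to 0.6611).

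**Figure D1:**
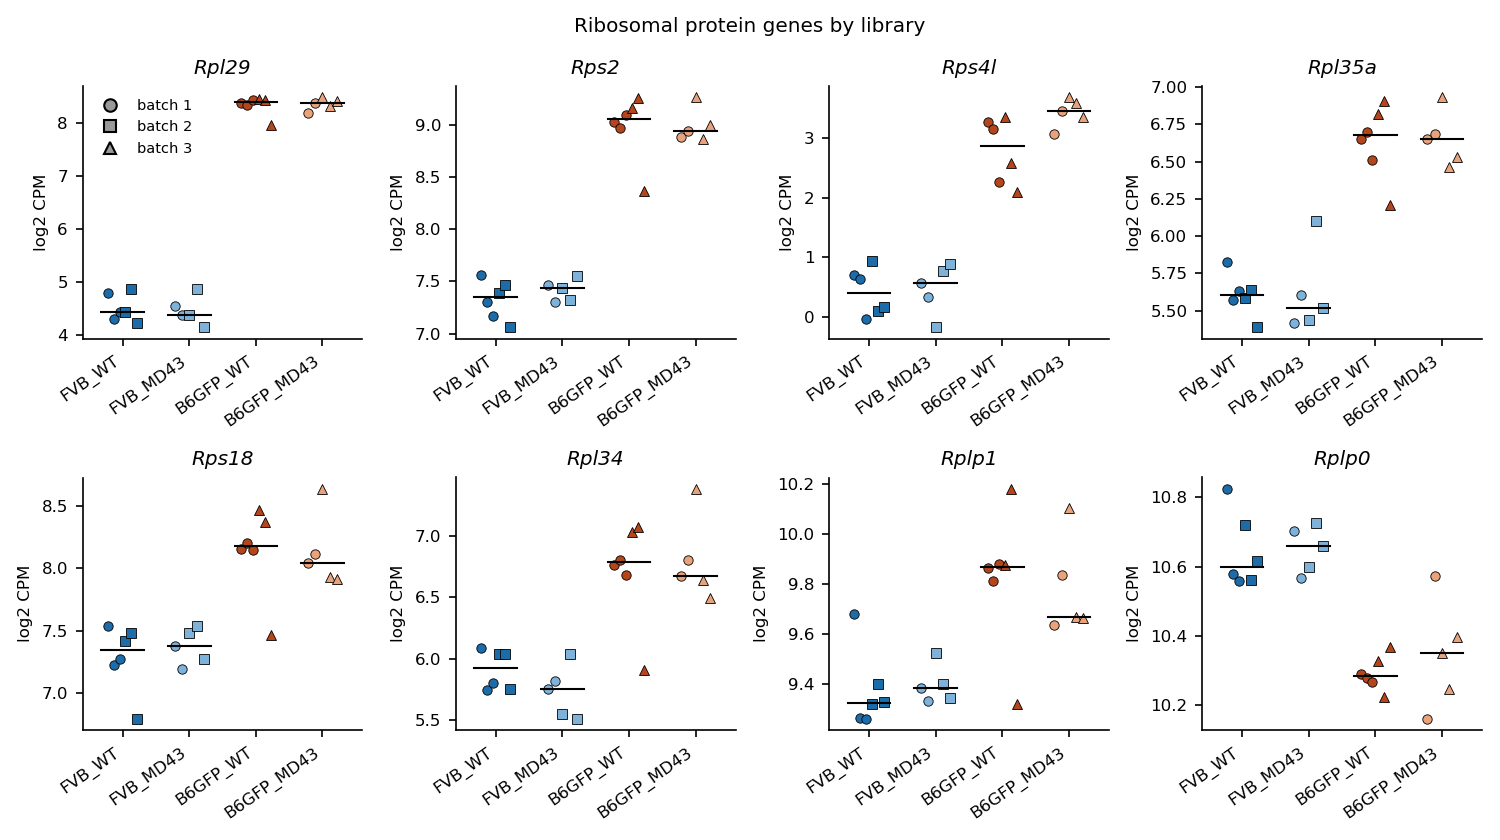
Level in log2 CPM (vertical axes, which differ between panels and do not start at 0) of 8 ribosomal protein genes in the 22 libraries, by group; symbols mark the batch and bars the group median. Rpl29 lay between 4.15 and 4.87 in FVB and between 7.96 and 8.47 in B6GFP, and Rplp0 is the gene shown that was higher in FVB.

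The question for the other 82 genes was whether they differed between the strains as Rpl29 did. In wild type, 50 of the 82 were higher and 1 was lower in B6GFP (limma, Benjamini-Hochberg over all genes, threshold 0.05), beside 17.9% of all genes higher and 23.2% lower. In MommeD43, with other libraries in the same fit, 29 were higher and 2 lower, beside 14.7% and 19.6% of all genes. The median difference of the 82 was 0.21 in wild type and 0.17 in MommeD43, against -0.02 and -0.03 over all genes; without the quality weights it was 0.10 and 0.15. Most of the differences were small: the 50 genes that were higher in wild type had a median of 0.24 (1.18-fold), and 7 of them exceeded 0.5. The counts rested on the quality weights, as did those of all genes. Without them 5 genes were higher and 1 lower in wild type, beside 3.83% of all genes higher, and 4 were higher and 0 lower in MommeD43, beside 3.44%. These were Rps2, Rps4l, Rpl35a and Rpl34 in both comparisons, with Rps18 and the lower Rplp0 in wild type. With the weights, the 51 wild-type calls, beside 41.09% of all genes called in either direction, fell to 20 without FVB_WT replicate 2 (26.9% of all genes), to 28 without B6GFP_WT replicate 2 (30.47%) and to 33 without B6GFP_WT replicate 1 (34.51%), and were 56 without B6GFP_WT replicate 4 (41.33%). In MommeD43 they rose from 31 (34.35% of all genes) to 55 (54.81%) without B6GFP_MD43 replicate 3, where estimation of the weights stopped before convergence. Within batch 1, 48 were higher and 1 lower in wild type, beside 15.13% of all genes higher, and 20 higher and 0 lower in MommeD43, beside 10.29%.

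Genes of both subunits were among those called, beside 17.9% of all genes higher and 23.2% lower in wild type. Of 49 genes of the 60S subunit 28 were higher and 1 lower in B6GFP_WT (median 0.19), and of 33 genes of the 40S subunit 22 were higher and 0 lower (median 0.23). In MommeD43 the counts were 17 and 2 for the 60S subunit (median 0.17) and 12 and 0 for the 40S subunit (median 0.20). Of all genes 14.7% were higher and 19.6% lower there. Without quality weights 5 of the 82 were higher and 1 lower in wild type, and 4 and 0 in MommeD43. The comparisons in wild type and in MommeD43 share no library, although they share strain, batch correction and fit. Of the 82 genes, 76 had a positive difference in both and 2 a negative one. The 28 genes higher in both comparisons were 28 of the 50 in wild type and 28 of the 29 in MommeD43. The shares of all genes with the same sign or call in both are not given here. Across the 82 genes, which are not independent replicates, Pearson's r between the differences of the comparisons was 0.93 and Spearman's rho 0.647. Over the 76 genes left without the 6 largest differences, Pearson's r was 0.487.

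**Figure D2:**
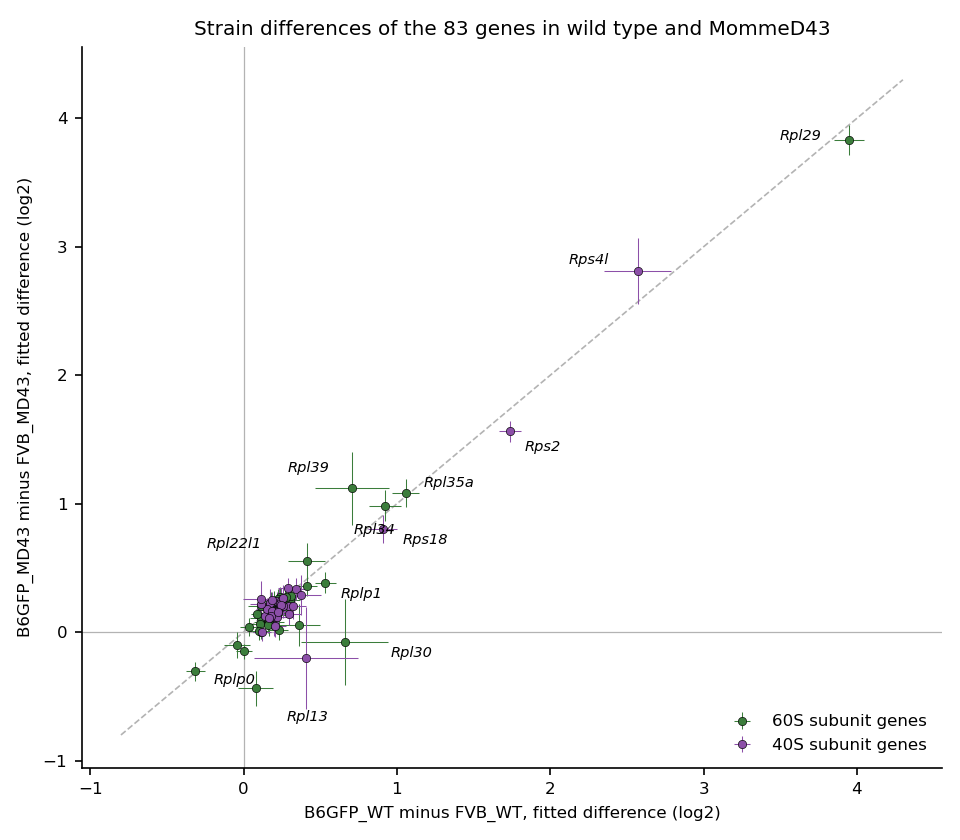
Fitted strain difference of each of the 83 genes in wild type (horizontal axis) and in MommeD43 (vertical axis), both B6GFP minus FVB in log2 units, with error bars of 1 SE; the dashed line marks equal values. Rpl29, Rps4l and Rps2 lie far out along the line, most genes lie between 0 and 0.5 on both axes, and Rplp0 is negative on both.

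Markers of NSCs and of other cell types moved with strain too. Of 5 NSC markers 2 were higher and 2 lower in B6GFP_WT, and 2 higher and 1 lower in B6GFP_MD43. Nes was higher by 0.67 in wild type (limma, adjusted p = 1.62e-07) and 0.70 in MommeD43, and Sox2 lower, with differences of -0.40 (adjusted p = 9.05e-07) and -0.50, both without overlap of the strains. Their summed level was 12.14 to 12.42 log2 CPM in FVB_WT, 12.21 to 12.41 in FVB_MD43, 12.18 to 12.72 in B6GFP_WT and 12.17 to 12.58 in B6GFP_MD43. The 3 astrocyte markers were lower in B6GFP in both comparisons, with a summed level of 6.13 to 7.27 log2 CPM in FVB_WT, 6.17 to 7.56 in FVB_MD43, 4.33 to 6.70 in B6GFP_WT and 5.05 to 5.59 in B6GFP_MD43. Of the 5 oligodendrocyte lineage markers 1 was higher and 2 lower in B6GFP_WT, and their summed level, mostly Olig2, was 9.04 to 9.40 in FVB_WT, 9.10 to 9.27 in FVB_MD43, 8.72 to 9.59 in B6GFP_WT and 9.29 to 9.67 in B6GFP_MD43. Of the 5 neuron markers 1 was higher and 2 lower in B6GFP_WT, and 2 higher and 1 lower in B6GFP_MD43. Syt1 was higher by 1.74 in wild type (limma, adjusted p = 0.000168) and 2.21 in MommeD43, without overlap of the strains. Dcx was lower, with differences of -1.90 and -1.85, and its strains overlapped. Tubb3 reached 6.48 log2 CPM in B6GFP_MD43, where its median was 2.63. The summed neuron markers were 9.50 to 9.85 in FVB_WT, 9.67 to 9.89 in FVB_MD43, 9.81 to 9.97 in B6GFP_WT and 9.88 to 10.36 in B6GFP_MD43, mostly Map2. In the highest library the fibroblast markers summed to 1.44, the endothelial markers to 3.33 and the red cell markers to 0.83 log2 CPM, and 0 of 4 microglial markers were in the table. The part of cell state or of other cell types in the strain differences was not tested. In such bulk samples, fewer cells of a type and less RNA per cell cannot be told apart.

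**Figure D3:**
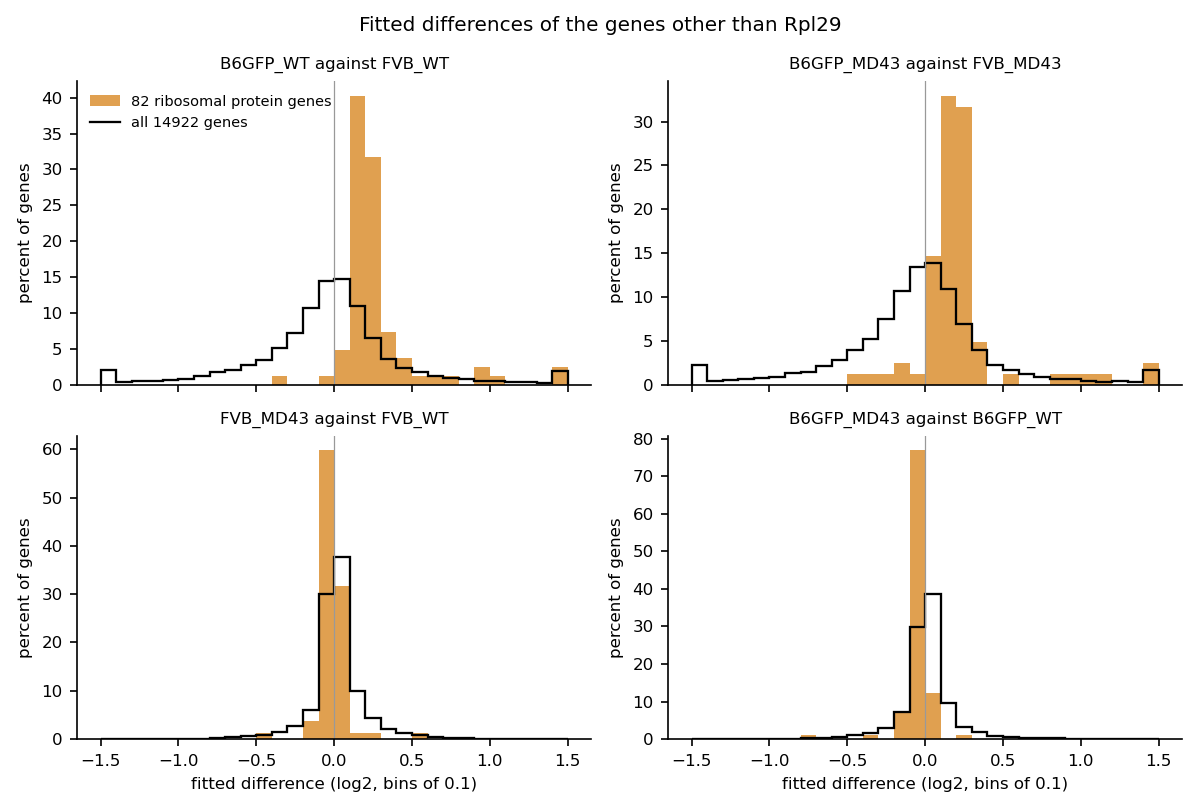
Percent of genes (vertical axes) by fitted difference in bins of 0.1 log2 units (horizontal axes, the outermost bins gather all values beyond) for the 82 ribosomal protein genes other than Rpl29 (filled) and all 14922 genes (line), in 4 comparisons. The 82 genes lie to the right of all genes in both strain comparisons, with medians of 0.21 and 0.17 (0.10 and 0.15 without quality weights), and near 0 in both MommeD43 comparisons.

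Among the genes with a 40S symbol, Rps2 and Rps4l differed most. Rps2 (Entrez 16898, chr17:24718121-24721927) encodes a protein near the site where mRNA enters the ribosome. The lowest, median and highest wild-type levels were 7.06, 7.35 and 7.56 log2 CPM in FVB_WT and 8.36, 9.06 and 9.26 in B6GFP_WT. In the MommeD43 groups it stood at 7.30, 7.32, 7.44, 7.47 and 7.55 in FVB and at 8.87, 8.89, 8.94, 9.01 and 9.27 in B6GFP. Every B6GFP library lay above every FVB library. The difference was 1.74 in wild type (SE 0.0716, 3.33-fold, limma adjusted p = 8.24e-14) and 1.56 in MommeD43 (SE 0.0843, adjusted p = 1.38e-11), and it was 1.75 and 1.53 within batch 1. Its pseudogene Gm8225 on chromosome 17 was higher in B6GFP as well, by 1.59 in wild type, and the sum of Rps2 and its pseudogenes kept a difference of 1.71. The pseudogenes named beside Rps2 and the genes below were chosen after their values were seen, except those of Rpl29.

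Rps4l (Entrez 66184, chr6:148354656-148355596), annotated in GENCODE as a pseudogene, is related to the X-linked Rps4x. Its levels were low, with a lowest, median and highest value of -0.03, 0.40 and 0.94 log2 CPM in FVB_WT and 2.09, 2.86 and 3.36 in B6GFP_WT. The MommeD43 libraries had -0.17, 0.34, 0.56, 0.77 and 0.88 in FVB and 3.07, 3.35, 3.45, 3.58 and 3.68 in B6GFP, again without overlap of the strains. The difference was 2.57 in wild type (SE 0.216, adjusted p = 8.44e-09, limma) and 2.81 in MommeD43 (SE 0.254, adjusted p = 4.07e-08). Rps4x, which supplies the protein in most cells, differed by 0.18 in wild type (adjusted p = 0.00796) and by 0.16 in MommeD43 (adjusted p = 0.0431).

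Rps18 (Entrez 20084, chr17:33951998-33955665) encodes a protein in the head of the small subunit that touches the large one. Its lowest, median and highest level was 6.80, 7.35 and 7.53 log2 CPM in FVB_WT and 7.47, 8.18 and 8.47 in B6GFP_WT. In MommeD43 it was 7.20, 7.27, 7.38, 7.48 and 7.54 in FVB and 7.92, 7.93, 8.04, 8.12 and 8.64 in B6GFP. Only B6GFP_WT replicate 4, at 7.47, fell within the FVB range. The difference was 0.91 in wild type (SE 0.0929, 1.88-fold, limma adjusted p = 1.47e-07) and 0.80 in MommeD43 (SE 0.109, adjusted p = 9.53e-06; without quality weights the latter missed the threshold, at 0.0553). Its pseudogene Gm6436 (chr13:61710582-61712979) was listed at -2.08 to -0.63 log2 CPM in FVB and 6.62 to 7.40 in B6GFP, and with it added the difference of Rps18 grew to 1.45, a 2.74-fold difference, in wild type and to 1.33 in MommeD43.

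On the 60S side, Rpl35a (Entrez 57808, chr16:33056453-33060189) encodes a protein needed to process the RNA of the large subunit. From lowest over median to highest, its level was 5.39, 5.61 and 5.82 log2 CPM in FVB_WT and 6.21, 6.68 and 6.91 in B6GFP_WT. In the MommeD43 groups it stood at 5.42, 5.43, 5.51, 5.61 and 6.10 in FVB and at 6.46, 6.53, 6.66, 6.69 and 6.93 in B6GFP. The strains did not overlap in either genotype. The difference was 1.06 in wild type (SE 0.0897, 2.08-fold, limma adjusted p = 9.45e-09) and 1.08 in MommeD43 (SE 0.105, adjusted p = 1.1e-07). The pseudogene Gm10029, shown above, differed by -0.72 in wild type (adjusted p = 0.0101), and the sum of both by 0.71 (adjusted p = 1.35e-05).

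Rpl34 (Entrez 68436, chr3:130726827-130730398) encodes another protein of the large subunit. Wild-type libraries had a lowest, median and highest level of 5.74, 5.92 and 6.09 log2 CPM in FVB_WT and 5.91, 6.79 and 7.08 in B6GFP_WT. The MommeD43 libraries had 5.51, 5.54, 5.75, 5.82 and 6.04 in FVB and 6.50, 6.64, 6.68, 6.81 and 7.39 in B6GFP. B6GFP_WT replicate 4 lay within the FVB range and the other B6GFP libraries above it. As listed, the gene was higher in B6GFP by 0.92 in wild type (SE 0.103, limma adjusted p = 4.85e-07) and by 0.98 in MommeD43 (adjusted p = 2.74e-06). Its 3 pseudogenes in the table were all higher in FVB: Rpl34-ps1 was listed at 7.85 to 8.23 log2 CPM in FVB and 5.83 to 7.14 in B6GFP, and the wild-type differences were -1.37 for Rpl34-ps1, -0.54 for Gm4705 and -4.91 for Rpl34-ps2. With these added the direction turned, to -0.66 in wild type (adjusted p = 4.67e-06) and -0.70 in MommeD43 (adjusted p = 2.38e-05).

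Rpl30 (Entrez 19946, chr15:34440505-34443276) varied most among lines of a group. The lowest, median and highest wild-type levels were 6.34, 6.71 and 6.87 log2 CPM in FVB_WT and 5.39, 7.31 and 8.69 in B6GFP_WT. In MommeD43 it was 6.60, 6.62, 6.62, 6.74 and 6.77 in FVB and 5.28, 6.71, 7.08, 7.31 and 7.44 in B6GFP. The spread was within B6GFP, where batch 3 held both the lowest and the highest libraries. The SD between lines within groups was 0.672, against a median of 0.219 over the 83 genes, and Rps21 was the other gene above 0.5. The strain difference of Rpl30 in wild type was 0.66 (SE 0.283, limma adjusted p = 0.0681), and -0.07 with its pseudogenes added (SE 0.11, adjusted p = 0.664). Summed with them, the gene ranged from 8.34 to 9.41 log2 CPM in B6GFP_WT.

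Over the whole set, 51 of the 83 genes had an annotated pseudogene in the table with a window in common, 108 in all, of which 25 were higher and 9 lower in B6GFP_WT, beside the 17.9% and 23.2% of all genes. Adding them moved the wild-type difference by more than 0.3 in 5 genes, Rpl29, Rpl30, Rpl34, Rpl35a and Rps18. The counts were then 50 higher and 2 lower in wild type and 31 higher and 2 lower in MommeD43. Across genes, the share of windows in common and the wild-type difference had a Spearman correlation of 0.0383. Rps3, with 0% of its windows in common, was 0.25 higher in B6GFP_WT (limma, adjusted p = 0.0102).

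**Figure D4:**
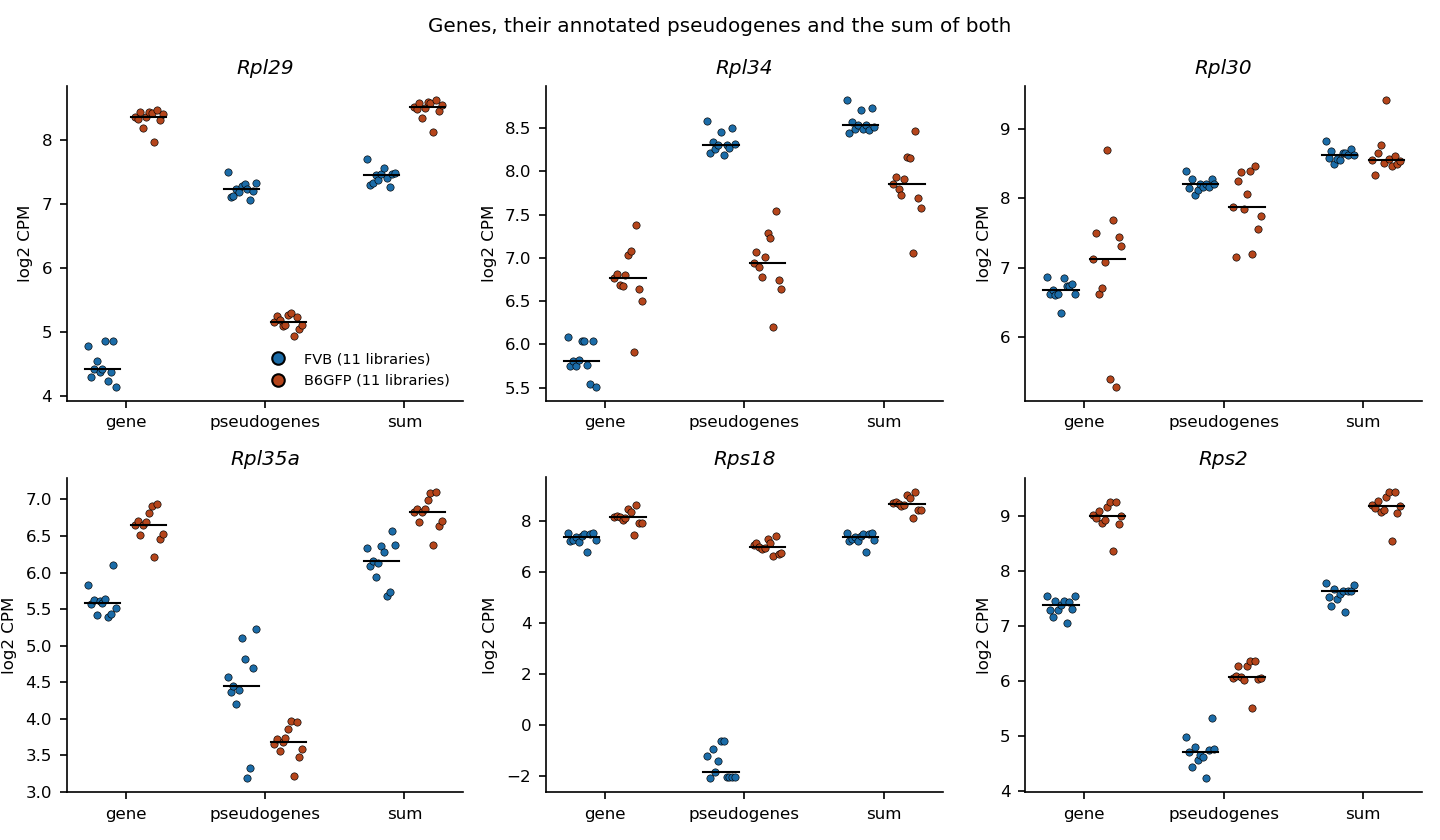
Level in log2 CPM (vertical axes, which differ between panels and do not start at 0) of 6 ribosomal protein genes, of the sum of their annotated pseudogenes in the table and of the sum of both, in 11 FVB and 11 B6GFP libraries; bars are medians. In Rpl29 and Rpl34 the gene was lower and the pseudogenes higher in FVB, and the sum of Rpl34 was lower in B6GFP, with a wild-type difference of -0.66. The medians of Rpl30 and Rpl35a and of their pseudogenes lay the same way, with overlap of the strains in the pseudogenes.

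The stalk of the large subunit recruits elongation factors and is built from Rplp0, its base, and dimers of Rplp1 and Rplp2. Rplp0 (Entrez 11837, chr5:115559467-115563729) had the highest mean log2 CPM of the set, not corrected for length, with a lowest, median and highest level of 10.56, 10.60 and 10.82 log2 CPM in FVB_WT and 10.22, 10.29 and 10.37 in B6GFP_WT. In the MommeD43 groups it stood at 10.57, 10.60, 10.66, 10.70 and 10.73 in FVB and at 10.16, 10.25, 10.35, 10.40 and 10.57 in B6GFP. The strains did not overlap in wild type, and in MommeD43 the highest B6GFP library overlapped the lowest FVB library. It was the gene called lower in B6GFP in both comparisons, by -0.31 in wild type (SE 0.0612, limma adjusted p = 0.000341) and -0.31 in MommeD43 (SE 0.072, adjusted p = 0.00251). Within batch 1 the differences were -0.31 and -0.27. Without quality weights the wild-type call held (adjusted p = 0.0136), and that in MommeD43 did not (adjusted p = 0.0558).

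Rplp1 went the other way. Its lowest, median and highest level was 9.26, 9.32 and 9.68 log2 CPM in FVB_WT and 9.32, 9.87 and 10.18 in B6GFP_WT, with B6GFP_WT replicate 4 among the FVB values. The MommeD43 libraries had 9.33, 9.34, 9.38, 9.40 and 9.52 in FVB and 9.63, 9.66, 9.67, 9.84 and 10.10 in B6GFP, with no overlap. Rplp1 was higher in B6GFP by 0.53 in wild type (SE 0.0674, adjusted p = 2.58e-06, limma) and by 0.39 in MommeD43 (SE 0.0793, adjusted p = 0.000773), and neither passed without quality weights (adjusted p = 0.0826 and 0.194). Rplp2 had a difference of 0.10 in wild type (95% interval -0.02 to 0.22, adjusted p = 0.169).

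Rpl5 and Rpl11 carry the 5S RNA into the ribosome and, when assembly fails, bind Mdm2 and so release p53. Rpl5 was higher in B6GFP by 0.28 in wild type (SE 0.0632, limma adjusted p = 0.00148) and 0.27 in MommeD43 (adjusted p = 0.00709). Without quality weights both calls of Rpl5 were lost (adjusted p = 0.484 in wild type). Rpl11 had differences of 0.17 (95% interval -0.02 to 0.37, adjusted p = 0.145) and 0.22 (adjusted p = 0.129). Of 10 p53 target genes, 4 were higher and 1 lower in B6GFP_WT, with a median difference of 0.09, and the lower gene was Ccng1 (-0.20). Over all genes 17.9% were higher and 23.2% lower.

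Some ribosomal proteins have a second gene of related sequence, which in some pairs, though not in all, can replace or balance the first. Rpl22l1 was higher in B6GFP by 0.41 in wild type (limma adjusted p = 0.00902) and 0.55 in MommeD43 (adjusted p = 0.00444), while Rpl22 had a wild-type difference of 0.15 (95% interval -0.02 to 0.31, adjusted p = 0.139). Rps27l, a p53-responsive relative of Rps27, was higher by 0.29 (adjusted p = 0.00153) and 0.34 (adjusted p = 0.00176), and Rps27 had a wild-type difference of 0.12 (95% interval -0.13 to 0.37, adjusted p = 0.47), with 98.5% of its windows in common with other genes. Rpl7 was higher by 0.16 in wild type (adjusted p = 0.0374). Rpl7l1 had 0.09 in wild type (adjusted p = 0.0756) and 0.14 in MommeD43 (adjusted p = 0.0215). The wild-type calls of Rpl22l1 (adjusted p = 0.658), Rps27l (0.417), Rpl7 (0.804) and Rps4x (0.508) were lost without quality weights. So were the MommeD43 calls of Rpl22l1, Rps27l, Rpl7l1 and Rps4x. The differences within these pairs were not tested against each other. The paralogs Rpl39l, Rpl3l and Rpl10l were not analysed here.

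Rpl3, a protein close to the site where peptide bonds form, was higher in B6GFP by 0.41 in wild type (SE 0.0638, limma adjusted p = 3.24e-05) and 0.36 in MommeD43 (adjusted p = 0.000908). Rpl10, an X-linked protein that joins the large subunit late, was higher by 0.30 (adjusted p = 0.00141) and 0.25 (adjusted p = 0.0201). Rps23, which lies at the decoding centre, was higher by 0.34 (adjusted p = 0.000693) and 0.33 (adjusted p = 0.0046). Rpl6, of the large subunit, was higher by 0.25 (adjusted p = 0.000469) and 0.25 (adjusted p = 0.00245). None of these 4 passed in either comparison without quality weights. In wild type the adjusted p was then 0.187 for Rpl3, 0.461 for Rpl10, 0.553 for Rps23 and 0.467 for Rpl6.

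Rpl39, which lines the exit tunnel, was listed lowest. From lowest over median to highest, its level was -1.63, -0.47 and 0.21 log2 CPM in FVB_WT and -0.47, 0.00 and 0.69 in B6GFP_WT, around 1 CPM. In MommeD43 it was -1.40, -0.91, -0.91, -0.80 and -0.60 in FVB and -0.49, -0.44, -0.41, -0.10 and 0.22 in B6GFP. The strains overlapped in wild type and did not in MommeD43. The difference was 0.71 in wild type (SE 0.241, limma adjusted p = 0.0228) and 1.12 in MommeD43 (SE 0.283, adjusted p = 0.00427), and neither passed without quality weights (adjusted p = 0.445 and 0.458).

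Regulation of these mRNAs is partly written into the start of the gene. The RefSeq promoter table (GRCm38.p6) held 72 windows of 61 of the 83 genes, each from 250 bases before to 50 after a start. A C followed by at least 4 bases that are each C or T, on the gene's strand and beginning from 5 bases before to 10 after the start, occurred in 37 of the 72 windows (51.4%), against 24.3% of all 32851 windows. CGGAAG, the core of ETS sites, was found on either strand in 61.1% against 16.9%, GGGCGG in 61.1% against 35.7%, ATGGCG in 30.6% against 8.93% and TATAAA in 11.1% against 13.6%. The reverse form of CGGAAG can overlap the pyrimidine run. Among genes with the run, 21 of 35 were higher in B6GFP_WT, with a median difference of 0.20, beside 17.9% of all genes higher. Among those with a window but no run it was 16 of 26, also with a median of 0.20. Of the 21 genes without a window, Rpl29 left aside, 13 were higher, with a median of 0.22. A part of the run in the strain differences was not tested. Starts of 6 of the genes described above follow, 35 bases before and 20 from the start on, because they hold or lack the run, which is in capitals.
Rps18, chr17:33955646-33955700, minus strand: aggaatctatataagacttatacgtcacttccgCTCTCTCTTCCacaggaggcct
Rps2, chr17:24720028-24720082, plus strand: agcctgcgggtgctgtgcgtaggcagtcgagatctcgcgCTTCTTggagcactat
Rpl34, chr3:130730379-130730433, minus strand: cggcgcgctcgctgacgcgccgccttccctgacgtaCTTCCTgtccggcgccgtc
Rpl39, chrX:37085203-37085257, minus strand: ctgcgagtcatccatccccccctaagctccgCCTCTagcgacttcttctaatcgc
Rpl35a, chr16:33056418-33056472, plus strand: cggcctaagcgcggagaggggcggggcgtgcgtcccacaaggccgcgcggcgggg
Rplp0, chr5:115559432-115559486, plus strand: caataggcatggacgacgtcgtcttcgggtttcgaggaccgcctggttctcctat
No run in that window was found for Rpl35a and Rplp0, which says only that the letters are not there.

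Other genes of the protein synthesis machinery were compared from lists, beside the 17.9% of all genes higher and 23.2% lower in wild type and 14.7% and 19.6% in MommeD43. Of 17 other 5′TOP mRNAs, 7 were higher and 0 lower in B6GFP_WT (median 0.12) and likewise 7 and 0 in MommeD43. Those with the highest levels were Eef1a1 (0.26, limma adjusted p = 0.00321) and Eef2 (0.13, adjusted p = 0.123), which are elongation factors, and Npm1 (0.31, adjusted p = 0.000172), a nucleolar chaperone. Of 34 ribosome biogenesis genes, 17 were higher and 0 lower in wild type (median 0.12) and 15 and 0 in MommeD43, among them Ncl (0.32, adjusted p = 1.86e-05), the main nucleolar protein nucleolin, and Nop58 (0.23, adjusted p = 0.000981), which guides RNA methylation. Without quality weights Eef1a1, Npm1, Ncl and Nop58 did not pass (adjusted p = 0.331, 0.203, 0.0568 and 0.165). Of 4 further ribosome components in the table, 2 were higher in wild type, Rack1 (0.24) and Rpl36al (0.18). Of 25 alternative fits each, Rack1 no longer passed in 3 and Rpl36al in 4 (limma, adjusted p up to 0.7496 and 0.705). The 77 genes of the mitochondrial ribosome had 9 higher and 17 lower, with a median of -0.03, near that of all genes. Of the 28 ribosomal protein pseudogenes recognised by name, 5 were higher, a share near that of all genes, and 2 lower, a share below it.

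The share of the library taken by the 83 genes together was 2.67% to 3.23% in FVB_WT, 2.68% to 2.98% in FVB_MD43, 2.13% to 3.66% in B6GFP_WT and 2.77% to 3.86% in B6GFP_MD43. The strains overlapped. Over lines the share was 2.86% ± 0.233 (SD, n = 5) in FVB_WT, 2.83% ± 0.106 (SD, n = 4) in FVB_MD43, 3.01% ± 0.594 (SD, n = 4) in B6GFP_WT and 3.15% ± 0.483 (SD, n = 4) in B6GFP_MD43. In batch 1 the B6GFP libraries lay at 3.01% to 3.21%, and in batch 3 at 2.13% to 3.86%.

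**Figure D5:**
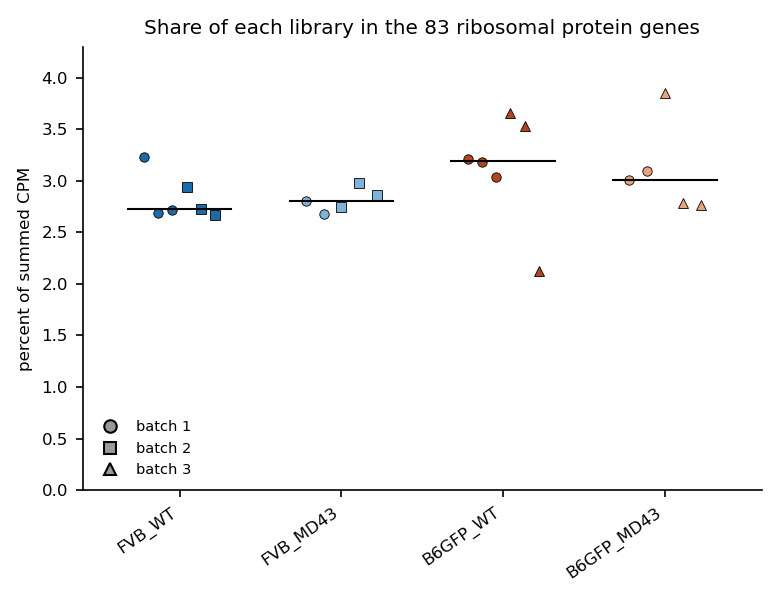
Percent of the summed CPM of each library in the 83 ribosomal protein genes (vertical axis from 0) by group; symbols mark the batch and bars the group median. B6GFP_WT replicate 4 of batch 3 is lowest at 2.13% and B6GFP_MD43 replicate 4 of the same batch highest at 3.86%.

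The comparison of MommeD43 with wild type asked whether the Smchd1 allele changed these genes within a strain. In FVB, 0 of the 82 passed, beside 0.0737% of all genes. In B6GFP, 0 passed, beside 0.0% of all genes. For the difference of the MommeD43 effect between strains, 0 passed, beside 0.0%. At an unadjusted p under 0.05 limma gave 1, 2 and 2 of the 82, beside 6.86%, 2.14% and 3.07% of all genes. The median difference was -0.02 in FVB and -0.05 in B6GFP, against 0.01 over all genes in each. In B6GFP in batch 3 alone it was -0.19, against 0.05 over all genes, and 77 of the 82 differences were negative. The median turned to 0.03 in B6GFP without quality weights, where 53 of the 82 differences were positive against 11 with them, and to 0.04 in FVB in batch 2 alone. Rpl29 differed by 0.03 in FVB (95% interval -0.15 to 0.21) and -0.09 in B6GFP (95% interval -0.32 to 0.15), and its effects differed by -0.12 (SE 0.142, limma adjusted p = 1).

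The genes with the smallest p in these comparisons did not pass after adjustment. In FVB they were Rpl39 with -0.46 (SE 0.212, limma adjusted p = 0.695), Rpl13 with 0.20 (adjusted p = 0.768) and Rps21 with 0.53 (adjusted p = 0.823). Within batch 2 alone Rpl39 had 0.12, and within batch 1 alone Rps21 had -0.04. In B6GFP they were Rpl13 with -0.32, Rpl30 with -0.73 and Rpl27a with -0.11 (each adjusted p = 1). For the difference between strains they were Rpl13 with -0.52 (SE 0.164, adjusted p = 1), Rpl37a with -0.21 and Rpl27a with -0.15, all proteins of the large subunit.

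Rpl13 (Entrez 270106, chr8:123102350-123105244) was the gene called lower in B6GFP in MommeD43 and not in wild type. Wild-type libraries had a lowest, median and highest level of 4.69, 4.87 and 5.03 log2 CPM in FVB_WT and 4.36, 4.95 and 5.04 in B6GFP_WT. In the MommeD43 groups it stood at 4.74, 4.87, 4.94, 5.33 and 5.37 in FVB and at 4.41, 4.42, 4.66, 4.83 and 4.98 in B6GFP, with overlap. The strain difference in MommeD43 was -0.44 (SE 0.133, limma adjusted p = 0.0147; 0.2004 without quality weights) and went to -0.13 with its pseudogenes added (adjusted p = 0.636).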

How the data were processed

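mRNA libraries made from total RNA (100 ng each) were sequenced with reads of 75 bases on a NextSeq by the authors, trimmed with Trim Galore (0.4.4) and mapped with HISAT2 (2.0.5) to GRCm38.p6, with versions from the submitters' processing notes. The counting tool is not given in the sources used here. The values, as deposited, are log2 CPM, which the authors corrected for batch, sex and strain with limma and edgeR. They are not counts, so no count model was run. All 24 columns matched a labelled sample and 0 did not. The 2 columns left out, FVB_MD43 replicate 3 and B6GFP_MD43 replicate 2 of batch 1, matched, to within 1e-06, the average of the 5 remaining columns of the same group.

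A linear model for each gene, over all 14922, was estimated in limma (3.58.1, under R 4.3.3) from group and batch, with a mean-variance trend, the line as a block (consensus correlation 0.0828) and array quality weights (0.101 to 4.90). Benjamini-Hochberg adjusted p-values, called below 0.05, take in every gene. They rest on the weighted spread between libraries of these lines, with repeat libraries of a line joined only by the consensus correlation. Group means are over lines, and fitted differences weight libraries unequally and so can differ from them. The script was tested on simulated data.

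The genes, the lists and the rule for naming were chosen with earlier results of these data known. Named were Rpl29, paralog pairs, stalk proteins, Rpl5 and Rpl11, the genes with the highest and lowest mean, up to 10 called genes with the smallest p per strain comparison, and 3 in each MommeD43 comparison. Rps3 and Rps21 beside other genes, and Rpl30 in the strain comparison, were named after their values were seen. The sums with pseudogenes were added after the data were seen. Some items are not reported here.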

Additional observations from a re-analysis of the deposited data

Results flagged for a closer look

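In groups of 4 or 5 lines, the level of each named gene was examined for a line with a wide gap to the others (Dixon's 95% critical value). Among 116 groups 11 such lines were found, where chance gives about 1 in 20, and the genes share libraries. Of these, 6 were B6GFP_WT replicate 4, the library with the lowest quality weight. It was low in Rpl29 at 7.96 log2 CPM (other lines 8.37 to 8.43), in Rpl34 at 5.91 (6.76 to 6.92), in Rps23 at 6.72 (7.42 to 7.50), in Rps21 at 6.31 (7.05 to 7.20) and in Rpl27a at 8.002 (8.36 to 8.42), and in the share of the library at 2.13% (3.21% to 3.42%). Another 3 were B6GFP_MD43 replicate 4, of the same batch, which was high in Rps18 at 8.64 (7.93 to 8.04), Rpl34 at 7.39 (6.64 to 6.68) and Rpl6 at 9.37 (9.06 to 9.10). In FVB_WT, replicate 4 was low in Rps21 at 4.97 (6.65 to 7.22), and in FVB_MD43, replicate 5 was high in Rpl22l1 at 6.91 (6.60 to 6.65).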

How the results depend on the processing

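Of 1983 alternative values of 77 fitted differences of named genes, 1870 kept direction and side of the threshold, 69 no longer passed, 23 newly passed, 2 values of Rpl29 moved by more than its spread and 19 values of 12 differences turned direction. Where no cause is named, the cause was not tested. Adding pseudogenes turned Rpl34 to -0.66 in wild type and -0.70 in MommeD43, and Rpl30 to -0.0665 in wild type. In wild type Rps27 was -0.066 without quality weights and ranged from -0.0484 to 0.166 without single lines, and Uimc1 from -0.0018 to 0.0913.

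The genes called in B6GFP_WT against FVB_WT numbered 51 as reported and 6 without quality weights (8.44% of all genes, in place of 41.09%). When a line was left out they were 20 (26.9% of all genes, without FVB_WT replicate 2) to 61 (41.16%, without B6GFP_MD43 replicate 4). In B6GFP_MD43 against FVB_MD43 they were 31, 4 without weights (6.82% of all genes) and 48 with libraries centred on their medians (35.37%). With all 24 columns they were 78, but the 2 added columns have no spread of their own and 93.76% of all genes were called. In batch 1, which has fewer samples, they were 20 (24.1% of all genes). Without single lines they were 25 (31.13%) to 55 (54.81%). In FVB_MD43 against FVB_WT they were 0, 3 with all 24 columns (3.42% of all genes) and 0 to 1 without single lines. In B6GFP_MD43 against B6GFP_WT they were 0, 1 with all 24 columns (3.22% of all genes) and 0 to 1 without single lines. For the difference of the effects they were 0 to 1 without single lines. Estimation of the quality weights stopped before convergence with all 24 columns and without replicates 1 and 2 of FVB_MD43 or 1 and 3 of B6GFP_MD43, each left out alone. Centring turned the balance over all genes in wild type, from 2676 higher and 3455 lower to 3608 and 2544, with 64 and 1 of the 82. The median over the 82 in FVB_MD43 against FVB_WT was also positive, at 0.02, with all 24 columns.

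Small MommeD43 differences turned too. In FVB, in batch 2 alone, Rpl39 was 0.12, Rpl13 -0.0146 and Rpl29 -0.0366, and in batch 1 alone Rps21 was -0.0425. Rpl29 without weights was -0.0392 in FVB, 0.0296 in B6GFP and 0.0688 in their difference, in B6GFP 0.0103 in batch 3 alone, and in FVB -0.083 to 0.151 without single lines. Rpl30 in B6GFP ranged from -1.11 to 0.22 without single lines.

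Replicate numbers did not pair the lines: same-numbered lines of a strain had correlations of deviations from -0.484 to 0.138. With a replicate block 60 of the 82 were called in wild type, beside 45.98% of all genes, and 30 in MommeD43, beside 32.64%. In that fit 0 were called in each MommeD43 comparison and in the difference. The shares of all genes were 0.92% in FVB, 0.02% in B6GFP and 0.0% for the difference. Rpl30 in B6GFP was 0.0613 with the replicate block. Unknown absolute depth limits low genes such as Rpl39 and Rps4l.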
